A study of Mus musculus with 6 samples.

Results

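Chaperonins are barrel-shaped protein machines that enclose a newly made or unfolded protein and let it fold away from the rest of the cell. In the cytosol the CCT complex (also called TRiC) is built from related but distinct subunits, each made by its own gene, and is best known for folding actin and tubulin. In the mitochondrial matrix Hspd1 (Hsp60) forms the barrel and Hspe1 (Hsp10) its lid, while Hspa9 (mortalin), the Hsp70 protein of mitochondria, pulls incoming proteins through the inner membrane and hands part of them on. In the adrenal gland, mitochondria hold several enzymes of steroid synthesis.

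The 10 genes described here are called chaperonin genes for short: the CCT subunit genes Tcp1, Cct2, Cct3, Cct4, Cct5, Cct7 and Cct8, and the mitochondrial genes Hspd1, Hspe1 and Hspa9. Hspa9, an Hsp70 protein rather than a chaperonin, is counted with them. Every probe set whose only gene symbol was one of these names was taken, which gave 15 probe sets, out of 8251 genes with such a probe set on the array. The arrays held adrenal RNA of male mice aged 12 weeks, 3 arrays of the hypertensive strain BPH and 3 of the hypotensive strain BPL. Both are lines bred for blood pressure, and no other strain or treatment was measured, so a difference is one between these lines. How many animals contributed RNA to each array is not stated, so a p-value here reflects the spread over arrays, which may be partly technical.

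The values are signal intensities on a linear scale, after each array was scaled to a common median. Signals of different probe sets were not read as relative amounts of RNA. A difference is BPH minus BPL on the scale of log2(signal + 203), given with its standard error (SE). A probe set was called when its limma p, adjusted by Benjamini-Hochberg over the 7453 probe sets bright enough to test, was under 0.05. The call was made for 237 probe sets that were higher and 69 that were lower in BPH, and for 195 and 99 with the authors' own scaling. Over all tested probe sets the differences had a median of 0.08, against -0.02 on the deposited scaling.

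Besides adrenal markers, the arrays showed markers of skeletal muscle and fat. The summed signal of 8 skeletal muscle markers ran from 1619 to 2443 on BPH arrays and from 22100 to 307329 on BPL arrays, with replicates 1 and 2 the highest. The summed signal of 4 fat markers ran from 111234 to 170179 in BPH, where replicate 1 was the highest, and from 156450 to 176327 in BPL. That of 6 adrenal cortex markers ran from 455601 to 538712 in BPH and from 373796 to 490127 in BPL, and that of 5 chromaffin markers from 201926 to 265307 in BPH and from 130359 to 205020 in BPL. For both adrenal lists BPL replicate 1 was the lowest array. Of the 8 muscle markers 7 were called lower in BPH, led by Acta1, Myh4, Tnnt3 and Myh1 with differences from -6.47 to -4.87. Dimmer probe sets of Myh4 (161545_r_at, -0.42) and Ckm (160175_at, 0.026) were not called, and that of Atp2a1 (162223_f_at, -4.48) was called lower. None of the 4 fat markers (Ucp1 -0.84, Cidea -0.63) or the 6 cortex markers (Nr5a1 0.44, Cyp21a1 0.18) was called by limma, with 2 and 1 at an unadjusted p under 0.05, each gene counted on its brightest probe set. The dimmer Nr5a1 probe sets differed by more, 100701_r_at being called higher at 1.24 (limma adjusted p = 0.023) and 100700_s_at not called at 0.96 (limma adjusted p = 0.089). Of the 5 chromaffin markers 1 was called higher (Th, 1.28, against 0.90 for the uncalled Pnmt). All 5 differences were positive, with a median of 0.53, and 3 had an unadjusted p under 0.05. Of 3 tested endothelial and leukocyte markers (Cd68 0.47, Cdh5 0.31) 0 were called by limma and 1 had an unadjusted p under 0.05.

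Most chaperonin genes had somewhat higher signals in BPH adrenals, and 1 of them, Hspe1, passed the test. Of the 15 probe sets 14 were bright enough to be tested, covering all 10 genes. Differences were positive for 13 of the 14, against 60.5% of all tested probe sets. By limma 1 of the 14 was called higher, against a background of 3.18%, and 0 were called lower, against 0.926%. An unadjusted p under 0.05 was found for 9 of the 14, against 20.6% of all tested probe sets. In 10 of the 14 every BPH array lay above every BPL array, which held for 19.7% of all tested probe sets, and in 0 of the 14 every BPH array lay below, against 7.97%. A stricter filter on dim probe sets kept all 14. Every BPH array then lay above for 10 of them, against 23.7% of the 4969 probe sets tested. The median difference of the 14 was 0.54, which is 0.46 above the median of all tested probe sets. Several of these probe sets share a target gene, so they are not 14 separate observations. The 10 genes were chosen with earlier results of these data known, so such counts are a description only. In whole tissue, fewer cells of a type and less RNA per cell cannot be told apart.

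**Figure D1:**
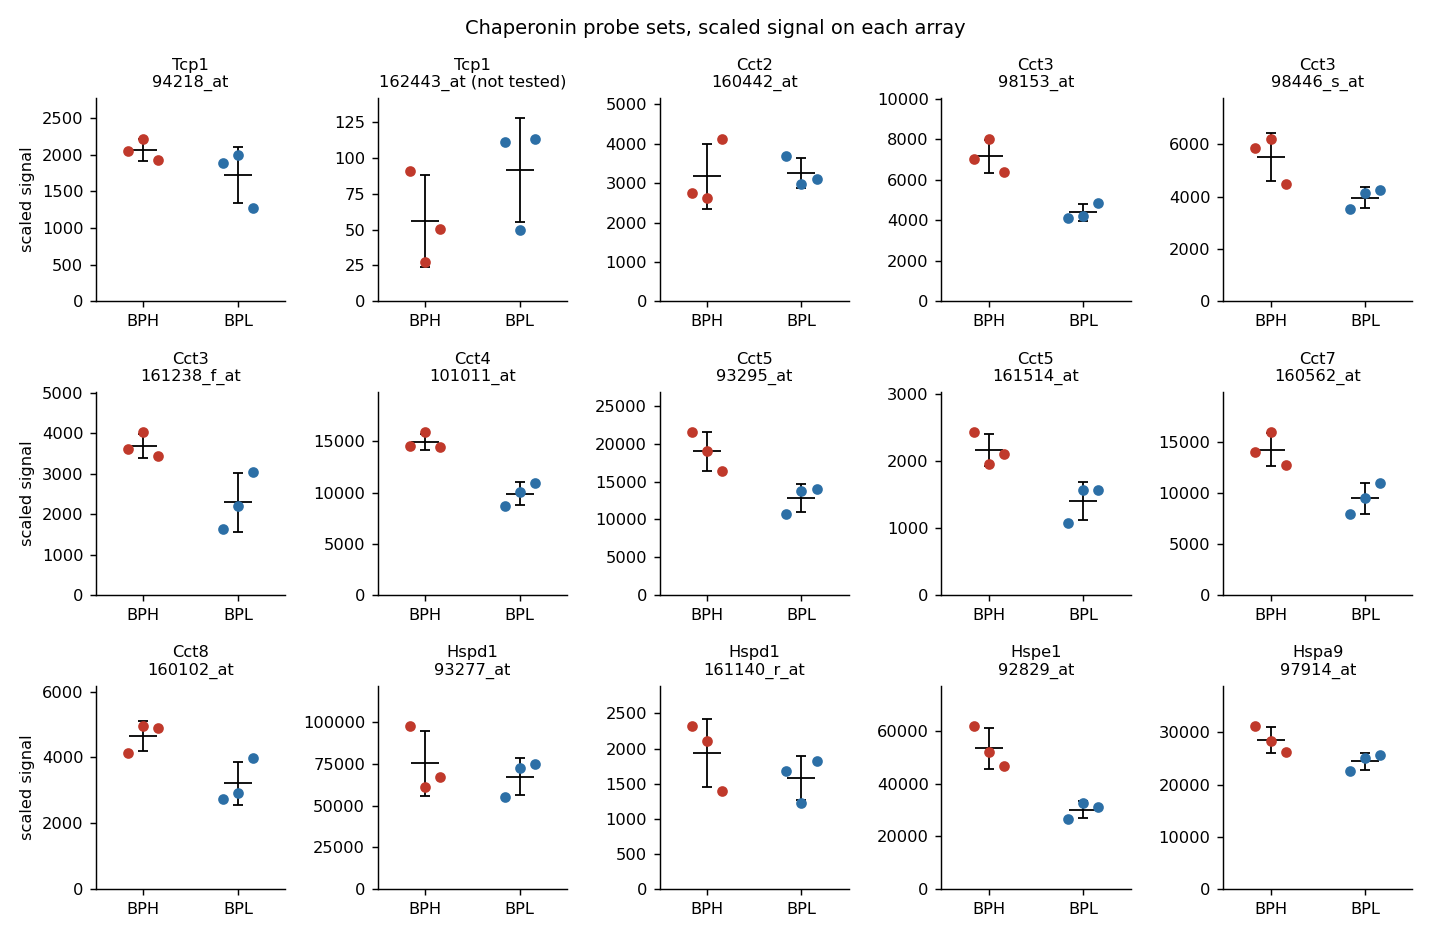
Scaled signal (vertical axes, linear, each from 0) of the 15 chaperonin probe sets on the 3 BPH (red, left) and 3 BPL (blue, right) arrays, in the order of replicates 1, 2 and 3; black marks are the mean and SD. Groups stand apart for most CCT probe sets and for Hspe1, and overlap for Tcp1, Cct2 and Hspd1.

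Within the CCT ring, Cct3 (the gamma subunit) had the largest difference. Its probe set 98153_at had signals of 7022, 8029 and 6387 in BPH replicates 1, 2 and 3, against 4093, 4189 and 4870.4 in BPL. All BPH arrays lay above all BPL arrays, and the difference was 0.68 ± 0.16 (SE), just short of the threshold (limma adjusted p = 0.055). A further Cct3 probe set, 161238_f_at, differed by about as much, 0.68 ± 0.22 (limma adjusted p = 0.14), with 3623, 4021 and 3442 in BPH, against 1623, 2194 and 3053 in BPL. The last one, 98446_s_at, had 5861, 6222 and 4473 in BPH, against 3512, 4130.4 and 4267 in BPL, a difference of 0.45 ± 0.18 (limma adjusted p = 0.21). The groups did not overlap on either, though BPH replicate 3 was close to BPL replicate 3. The suffixes s, f and r mark probe sets whose probes may match other transcripts or were picked under relaxed rules.

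Cct4, the delta subunit, came next. It had signals of 14508, 15859.6 and 14479.6 in BPH, against 8710 and 10009 in BPL replicates 1 and 2 and 10956 in replicate 3. The lowest BPH array was well above the highest BPL array, and the difference was 0.59 ± 0.15 (limma adjusted p = 0.079). Cct7, the eta subunit, had 14027, 15938 and 12718 in BPH, against 7959, 9562 and 10953 in BPL, with no overlap and a difference of 0.58 ± 0.18 (limma adjusted p = 0.12).

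Cct5, the epsilon subunit, had 21507, 19062 and 16428 in BPH, against 10756, 13712 and 14076.5 in BPL on its brighter probe set 93295_at. Its dimmer one, 161514_at, had 2422, 1955 and 2105 in BPH, against 1074, 1561 and 1568 in BPL. Both showed groups apart and nearly the same difference, 0.56 ± 0.18 for the brighter (limma adjusted p = 0.13) and 0.57 ± 0.18 for the dimmer (limma adjusted p = 0.14). Cct8, the theta subunit, had 4137, 4946 and 4894 in BPH, against 2733, 2918 and 3964 in BPL. Its groups did not overlap, but BPL replicate 3 was close to BPH replicate 1, and the difference was 0.53 ± 0.18 (limma adjusted p = 0.16).

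Tcp1 and Cct2 stood lower in this order. Tcp1, the alpha subunit that gave the complex its older name, had signals of 2050.1, 2219 and 1922 in BPH, against 1884, 1993 and 1279 in BPL on probe set 94218_at. BPL replicate 2 lay inside the BPH range, and the difference of 0.26 ± 0.19 did not pass (limma adjusted p = 0.46, 95% interval -0.17 to 0.69). The other Tcp1 probe set, 162443_at, was too dim to test, with 90.6, 27.3 and 50.5 in BPH and 111, 49.8 and 113 in BPL. Cct2, the beta subunit, had 2761, 2620.1 and 4133 in BPH, against 3684, 2985 and 3103 in BPL. Both the highest and the lowest array were BPH arrays, and the difference was -0.06 ± 0.20 (limma adjusted p = 0.89). Its 95% interval, from -0.52 to 0.40, leaves room for a change in either direction.

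In all, 0 of the 10 tested CCT probe sets were called by limma, against 3.18% of all tested probe sets called higher and 0.926% called lower. An unadjusted p under 0.05 was found for 8, against 20.6% of all. In 8 of the 10 every BPH array lay above every BPL array, against 19.7% of all. Counted with the brightest probe set of each gene, the median difference of the 7 CCT genes was 0.56, against 0.44 on the deposited scaling. It was 0.47 above the median of all tested probe sets, and between 0.38 and 0.56 above it under the 15 other settings. The remaining ring subunit gene, Cct6a, is not among the 10, and was looked at to complete the ring. Its probe set 162279_f_at had 5626, 6159 and 5413 in BPH, against 3836, 3815 and 3722 in BPL, a difference of 0.57 ± 0.14 (limma adjusted p = 0.068). A further Cct6a probe set was too dim to test.

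**Figure D2:**
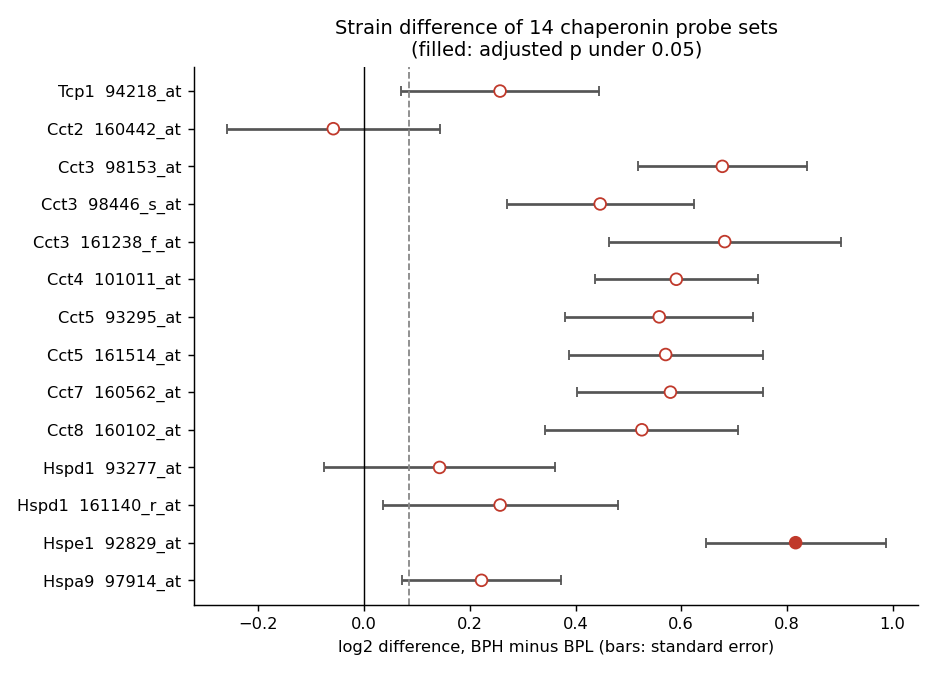
Log2 difference, BPH minus BPL, of the 14 tested chaperonin probe sets, with standard errors as bars; the dashed line is the median of all tested probe sets, 0.08. Hspe1 is the filled point at 0.82, most CCT probe sets lie between 0.45 and 0.68, and Cct2 lies at -0.06.

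Arrays of a strain were not alike. Over the 7 CCT genes, the mean log2 signal after centring each gene was 0.19, 0.28 and 0.20 in BPH replicates 1, 2 and 3, against -0.31, -0.21 and -0.15 in BPL. BPL replicate 1 was the lowest of the 6 arrays for 11 of the 14 chaperonin probe sets. BPH replicate 2 was the highest for 7 and BPH replicate 1 for 6. BPL replicate 1 also had the lowest sums of cortex and chromaffin markers, and their part in the result was not tested. BPL replicates 1 and 2 had the most muscle signal, but BPL replicate 3 also lay above BPH, with a sum of 22100 against at most 2443. Leaving out BPL replicates 1 and 2 thus did not even out muscle signal. Without them, the median of the 7 CCT genes was 0.42. In 11 of the 14 chaperonin probe sets every BPH array still lay above the remaining BPL array, against 32.6% of all tested probe sets. The median of the 14 was then 0.35, with 0 called by limma and 2 at an unadjusted p under 0.05.

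Hspe1, the lid of the mitochondrial chaperonin, rose in BPH. Its signals were 61939.9, 51963 and 46727 in BPH, against 26753, 32608 and 31283 in BPL. The lowest BPH array stood clearly above the highest BPL array, and means were 53543 ± 7729 in BPH and 30215 ± 3069.95 in BPL (SD, n = 3 each). The difference was 0.82 ± 0.17 (SE, limma adjusted p = 0.036, 95% interval 0.43 to 1.20). The call was narrow: leaving out any 1 of the 6 arrays gave adjusted p-values from 0.056 to 0.13, with differences from 0.71 to 0.91. It was also lost with no filter (adjusted p = 0.091), with a replicate block (adjusted p = 0.090) and without BPL replicates 1 and 2 (0.76, adjusted p = 0.30). It was kept in 6 of the 15 other settings, with differences of 0.70 with the authors' scaling and 0.64 after quantile normalization.

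Hspd1, the barrel that Hspe1 closes, did not pass. Its main probe set 93277_at had signals of 97733, 61409 and 67022 in BPH, against 54959, 72540 and 74916 in BPL. The highest array was BPH replicate 1, but the other BPH arrays lay inside the BPL range. The difference was 0.14 ± 0.22 (limma adjusted p = 0.75, 95% interval -0.36 to 0.64), and it turned to -0.06 without BPH replicate 1 and to -0.031 after quantile normalization. The dimmer probe set 161140_r_at had 2319, 2103 and 1393 in BPH, against 1678, 1221 and 1825 in BPL, with overlapping groups and a difference of 0.26 ± 0.22 (limma adjusted p = 0.54). The main probe set was brighter on average than 99.7% of all probe sets, and that of Hspe1 brighter than 99.0%, a range where differences can be compressed. Whether they were compressed here was not tested.

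Hspa9, the import motor, had a small difference. Its signals were 31195, 28376 and 26179 in BPH, against 22564, 25044 and 25745 in BPL. No BPL array reached the lowest BPH array, but the gap was small, and the difference of 0.22 ± 0.15 did not pass (limma adjusted p = 0.43, 95% interval -0.12 to 0.57). BPH replicate 1 was the highest of the 6 arrays for Hspd1, Hspe1 and Hspa9 alike. It was also the BPH array with the highest sum of fat markers, and their part in the result was not tested.

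Hspd1 and Hspe1 lie head to head in the mouse genome and are read in opposite directions from the stretch between them, which is why that stretch is shown. In the RefSeq promoter table (build GRCm38.p6), 1 of the 2 Hspd1 starts lies 216 bases from the Hspe1 start, and the other lies inside Hspe1. Heat shock factor 1 is known to bind inverted repeats of GAA and TTC units, called heat shock elements. Windows from 250 bases before to 50 bases after the start were searched for TTCNNGAA or GAANNTTC (2 units), TTCNNGAANNTTC or GAANNTTCNNGAA (3 units), and TTCNNGAANNTTCNNGAA or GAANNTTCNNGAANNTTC (4 units). Each pair of patterns covers both strands, and a longer match holds the shorter ones. The 120 bases before the start are printed for Hspe1, the called gene, and for Cct3 and Cct5 as CCT genes without and with a match, with 2-unit matches in capitals.
Hspe1, chr1:55088028-55088147, plus strand: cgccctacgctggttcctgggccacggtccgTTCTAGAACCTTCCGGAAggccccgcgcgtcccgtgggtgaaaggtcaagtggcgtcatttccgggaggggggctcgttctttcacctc
Cct3, chr3:88297015-88297134, plus strand: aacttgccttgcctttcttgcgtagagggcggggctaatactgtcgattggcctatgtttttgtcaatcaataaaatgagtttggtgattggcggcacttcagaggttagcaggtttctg
Cct5, chr15:31601847-31601966, minus strand: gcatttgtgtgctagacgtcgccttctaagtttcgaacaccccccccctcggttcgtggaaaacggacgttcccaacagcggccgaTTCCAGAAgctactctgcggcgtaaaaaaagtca

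The capitals before Hspe1 are 1 unbroken 4-unit match, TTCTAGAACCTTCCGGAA, which starts 89 bases before the Hspe1 start and, on the other strand, 144 bases before the Hspd1 start that lies 216 bases away. A 4-unit match was found in 8 of the 32851 windows of the table (0.0244%), and a 3-unit match in 198 windows (0.603%). The Hspd1 and Hspe1 windows overlap, so this single stretch counts for both genes. Of the 8 chaperonin genes whose windows were searched (11 windows), no other one held a 3-unit match. A 2-unit match, present in 15.1% of all windows, was found for Cct2 and Cct5 besides these. Of the genes on either side of the 4-unit match, Hspe1 was called higher and Hspd1 was not called, which does not show that they differed from each other. A match describes letters in a window and does not show that a factor bound there.

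The log2 ratio of Hspe1 to Hspd1 signal on each array was compared between strains, a comparison chosen after the values were seen. It was -0.66, -0.24 and -0.52 in BPH replicates 1, 2 and 3, against -1.03, -1.15 and -1.25 in BPL. All BPH ratios lay above all BPL ratios, with means of -0.47 ± 0.21 in BPH and -1.15 ± 0.11 in BPL (SD, n = 3 each) and a difference of 0.67. The 2-sided exact permutation test gave p = 0.1, the smallest that 3 against 3 arrays allow, and adjusted p = 0.2 over the 2 ratios tested. The other ratio set Cct2 against the mean of the other 6 CCT genes, and was -1.48, -1.66 and -0.85 in BPH, against -0.43, -0.89 and -0.90 in BPL. BPH replicate 3 lay among the BPL values, the difference was -0.59, and the exact permutation test gave p = 0.3 (adjusted p = 0.3). It was thus not shown that Cct2 behaved differently from the rest of the ring.

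**Figure D3:**
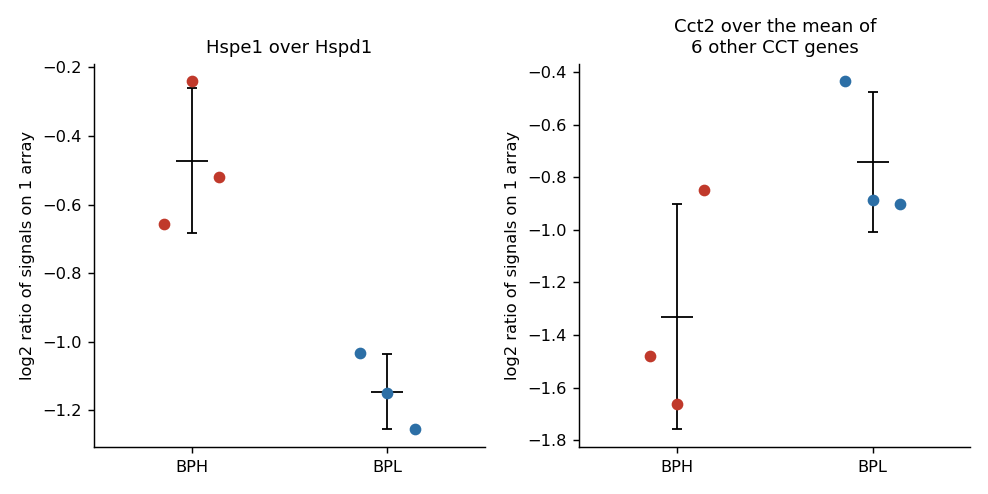
Log2 ratio of 2 signals on the same array (vertical axes, which do not start at 0) for BPH (red, left) and BPL (blue, right), with mean and SD in black. The Hspe1 to Hspd1 ratio was higher on all BPH arrays, and the ratio of Cct2 to the mean of 6 other CCT genes overlapped between strains.

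The genes that work with the CCT ring showed few calls. Prefoldin carries unfolded actin and tubulin to the ring, and tubulin cofactors take up tubulin that leaves it. Of 9 tested prefoldin and cofactor genes 0 were called by limma and 1 had an unadjusted p under 0.05, with a median of 0.12. The largest differences were those of Pdcl3, a phosducin-like protein that binds the ring, and of the tubulin cofactor Tbcb. Pdcl3 had 3191, 3418 and 3819 in BPH, against 4892, 6286 and 4168 in BPL, so all BPH arrays were lower, and the difference was -0.52 ± 0.18 (limma adjusted p = 0.17). Tbcb had 1972, 2191 and 2006 in BPH, against 1028, 1914 and 1888 in BPL, where replicate 1 stood low, and the difference was 0.36 ± 0.23 (limma adjusted p = 0.40).

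Among proteins that the ring is known to fold, 3 of 13 tested genes were called higher and 0 lower, against the background of 3.18% and 0.926%, and the median was 0.37 (0.25 with the authors' scaling). These were the beta tubulins Tubb2a and Tubb5 and the G protein subunit Gnb1. Tubb2a had 6467, 8513 and 12723 in BPH, against 3002, 4049 and 4195 in BPL, a rise of 1.22 ± 0.25 (limma adjusted p = 0.036). All BPH arrays were higher on that probe set, whereas its other probe set differed by -0.65 ± 0.27 (limma adjusted p = 0.22), and beta tubulin probe sets may share targets. Tubb5 had 13303, 14879.5 and 16862 in BPH, against 6462, 8441 and 9914 in BPL, a rise of 0.86 ± 0.19 (limma adjusted p = 0.048). Its other probe set differed by 0.87 ± 0.45 and was not called. Gnb1 had 15592, 17255 and 13017 in BPH, against 7226, 7909 and 9488 in BPL, a rise of 0.88 ± 0.18 (limma adjusted p = 0.032). Of its other 2 probe sets 1 was called, at 0.86, and 1 was not, at 0.60. In the 15 other settings Tubb2a was called in 7, Gnb1 in 8 and Tubb5 in 4.

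Around the mitochondrial chaperones, the partners of Hspa9, the import channel and the matrix proteases showed no common shift. Of 18 tested genes 0 were called by limma, 1 had an unadjusted p under 0.05, 9 had positive and 9 negative differences, and the median was 0.0098. Lonp1, a protease of the matrix, had 12852, 14933 and 14279 in BPH, against 8311, 10280.1 and 11396 in BPL. Its groups did not overlap, and the difference of 0.49 ± 0.17 did not pass (limma adjusted p = 0.16). Yme1l1, a protease of the inner membrane, had 1368, 1793 and 969 in BPH, against 813, 947 and 1335 in BPL, with overlapping groups and a difference of 0.34 ± 0.24 (limma adjusted p = 0.44).

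The cytosolic heat shock genes had larger differences than the chaperonin genes, which was not tested. All 6 tested ones were called higher, against the background of 3.18%, with a median of 2.80 and a range from 0.88 to 4.89, and the 4 with the largest differences were Hspa1a, Hspa1b, Dnajb1 and Hsph1. The smallest of the 6, Hspa8, the constitutive Hsp70 of the cytosol, differed by 0.88, next to 0.82 for Hspe1. These genes were known to be higher in BPH from earlier results of the same arrays.

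**Figure D4:**
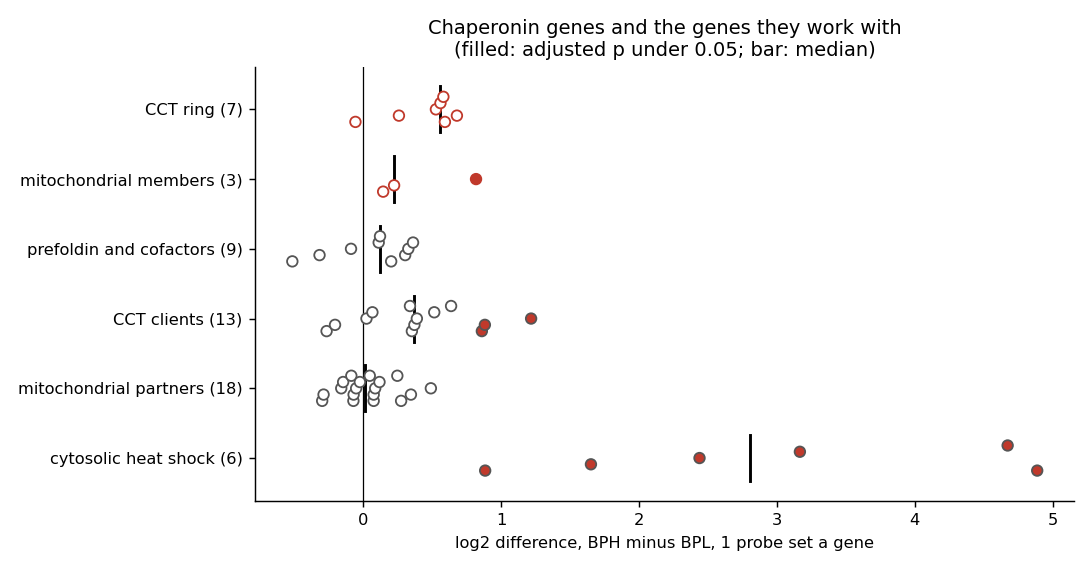
Log2 difference, BPH minus BPL, of each tested gene (1 point a gene, its brightest probe set) in the 2 chaperonin groups and 4 related lists, with the number of genes in brackets; filled points were called and black bars are medians. The CCT ring centres on 0.56, the mitochondrial partners on 0.0098 and the cytosolic heat shock genes on 2.80.

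Most of these differences kept their sign in other processing. Of the 14 probe sets 12 were positive in all 15 other settings that were run, the exceptions being Cct2 and the main Hspd1 probe set. Settings that changed only the filter, the variance model or the replicate block cannot change a difference, so its sign was fixed there. Cct3 (98153_at) and Cct4 were called higher in 3 of the 15 settings: with a larger pseudocount, with a stricter filter on dim probe sets, and with a trended and robust variance. Cct3 (161238_f_at) was called in 1, without BPL replicate 3.

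**Figure D5:**
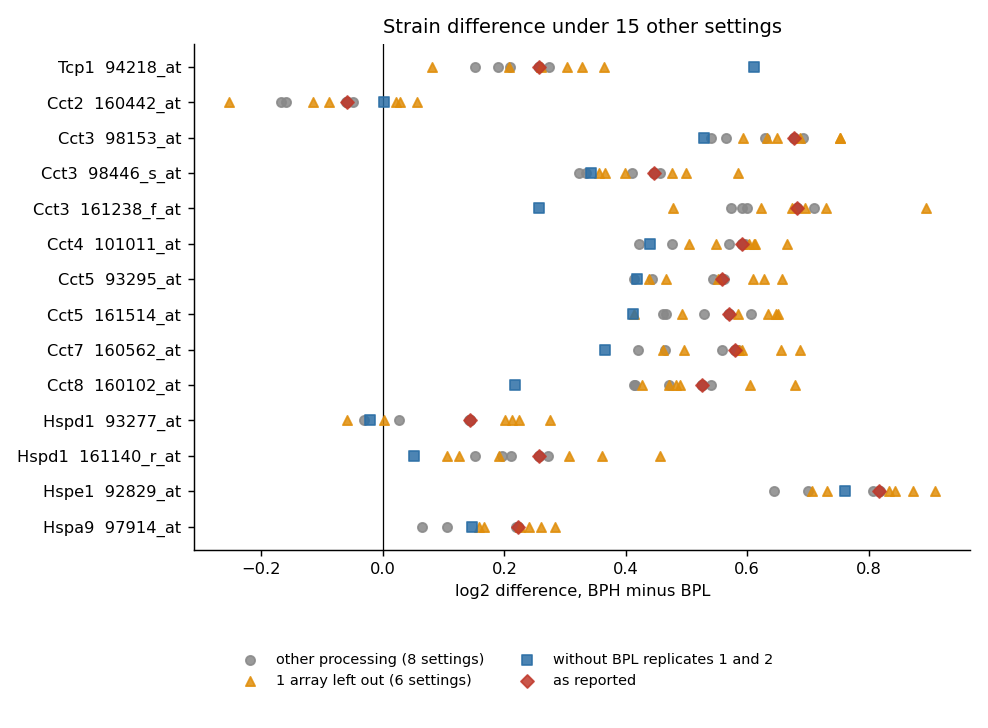
Log2 difference, BPH minus BPL, of the 14 tested chaperonin probe sets as reported (red diamonds) and under 15 other settings: 8 of processing (grey), 6 with 1 array left out (orange) and 1 without BPL replicates 1 and 2 (blue). Hspe1 stays between 0.64 and 0.91, and Cct2 and Hspd1 (93277_at) lie on both sides of 0. The settings of filter, variance model and replicate block repeat the reported difference by design.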

How the data were processed

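The deposited values are linear signal intensities, 1 for each probe set on each array, which the authors derived using MAS5, as stated per the submitters' processing notes (version and settings not given in the sources used). Of 12488 probe sets, 66 controls were left out. Array medians ran from 945 to 1144, so each array was scaled to their mean, 1040, and the scale is log2(signal + 203), with the 20th percentile of scaled signals as pseudocount. Tests left out the dimmest 40% of probe sets by mean log2 signal. limma 3.58.1 (R 4.3.3) compared BPH with BPL, 2-sided, with 4 residual and 4.50 prior degrees of freedom. The script was tested on simulated data. No 2 arrays shared more than 1 identical value. The small number of arrays limits the precision. The 10 genes, the lists and most settings were chosen with earlier results of these data known.

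Every probe set of the 10 genes is given. From each other list, up to 4 called genes with the largest differences were named, or up to 2 genes in all where fewer than 2 were called. Each list was counted with the brightest probe set per gene. Genes were named from the platform annotation. Promoter windows are from RefSeq (GRCm38.p6). The array files name no build.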

Additional observations from a re-analysis of the deposited data

How the results depend on the processing

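Over all probe sets, 306 were called, against 127 with no filter, 87 without BPL replicates 1 and 2, and 101 to 375 with 1 array left out. Of the 14 chaperonin probe sets limma called 1 (Hspe1), against 3 with the larger pseudocount, the stricter filter or the trended and robust variance, and 0 with no filter, with the replicate block or without BPL replicates 1 and 2. Unadjusted p-values under 0.05 numbered 9, 8 and 2 in those 3 settings. With 1 array left out the count was 0 to 1, with 6 to 9 unadjusted. The cause was not tested. Cct2 ran from -0.25 to 0.057 with 1 array left out and was 0.0022 without BPL replicates 1 and 2. Hspd1 (93277_at) ran from -0.059 to 0.28 with 1 array left out, and was -0.031 after quantile normalization and -0.021 without BPL replicates 1 and 2. Same-numbered BPH and BPL arrays did not deviate alike from their group means (correlations of deviations -0.058, -0.054 and -0.18). With so few arrays this cannot show whether they were handled together. The replicate block gave 239 calls over all probe sets. With the deposited scaling the CCT median was 0.44. Every BPH array then lay above every BPL array for 9 of the 14 chaperonin probe sets, against 14.1% of all tested probe sets.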

Other observations

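By the distance between log2 values centred on their mean over the 6 arrays, the genes nearest to the mean of the 7 CCT genes were Ppp1r21, Csnk1a1 (casein kinase 1 alpha) and 1110004F10Rik, at distances of 0.070, 0.076 and 0.086, where the median over 5653 other tested genes was 0.69. Their differences of 0.44, 0.44 and 0.41, BPH minus BPL, were not called (limma adjusted p from 0.14 to 0.16). The genes nearest to the mean of Hspd1, Hspe1 and Hspa9 were Mrpl24, a protein of the mitochondrial ribosome, Tmco1 and Ssbp2, at 0.12, 0.12 and 0.13, where the median was 0.70. Their differences of 0.34, 0.37 and 0.35 were not called either (limma adjusted p from 0.25 to 0.27). With 6 arrays many genes can lie close to any profile, so the likeness is a description only.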
